A study of Mus musculus with 12 samples.

Results

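Gene expression was compared between cortices of Dnmt3a conditional knockout (CKO) mice and cortices of their littermate controls, which together made up 6 of the 12 libraries of the series, chosen by the genotype in the sample labels. The 3 CKO mice were Olig1cre/+;Dnmt3aflox/flox and the 3 control mice were Olig1+/+;Dnmt3aflox/flox. The floxed line had been backcrossed to C57BL/6 and was then crossed with Olig1-cre mice. The cortex was taken at postnatal day 16, and the libraries were labelled as biological replicates. Both groups carried the floxed Dnmt3a alleles, and the groups differed in the cre allele, which sat in the Olig1 locus of the CKO mice. The cre therefore deleted Dnmt3a in cells of the oligodendrocyte lineage, whereas the RNA came from the whole cortex with its neurons, astrocytes, microglia and vessels. The other 6 libraries came from a Dnmt1 line made with the same cre (3 CKO and 3 control mice) and were used to ask where the effects in the lines differed.

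DNMT3A is a de novo DNA methyltransferase, an enzyme that adds methyl groups to cytosines which did not carry them before, mostly at CpG dinucleotides and in neurons also elsewhere. DNMT1 copies existing methylation to the new strand when DNA is replicated. Oligodendrocyte progenitors divide, leave the cell cycle and then wrap axons with myelin, and the third postnatal week falls within the period of active myelination in the mouse cortex. Olig1 encodes a transcription factor of this lineage and is transcribed in progenitors and in mature oligodendrocytes.

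Expression was given as FPKM, which divides the fragments of a transcript by its length and by the fragments mapped in the library, with sums per library of 342274 to 417856 FPKM. Depth per library was not given. Relative depth was estimated from the most frequent ratio between libraries among low values of single-transcript genes. It lay between 0.856 and 0.933 of the deepest of the 12 libraries. Genes of microRNAs and small nucleolar RNAs, which are shorter than a sequenced fragment, took 20.3% to 33.6% of the FPKM sum, with the highest share in Dnmt3a control replicate 3, and 128 to 134 rows per library were listed at 0 although their mean was over 5 FPKM. Xist, the RNA of the inactive X chromosome, was at 0.0775, 0.0397 and 49.4 FPKM in control replicates 1, 2 and 3 and at 0.0853, 0.0473 and 46.2 FPKM in CKO replicates 1, 2 and 3, so replicate 3 of each group was female by expression and the groups were balanced. CKO replicate 3 was low in 9 genes that were neither small RNAs nor listed at 0, and CKO replicate 2 was low in immediate early genes; the genes concerned are described further on.

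The targeted gene was examined first. Dnmt3a (chromosome 12 of GRCm38, 3806007 to 3914443, plus strand) was at 31.1, 16.9 and 28.7 FPKM in control against 13.6, 14.2 and 15.4 FPKM in the CKO cortices. The groups did not overlap (as in 12.8% of all rows, with 7.33% higher and 5.43% lower in CKO cortices), but the library labelled control replicate 2 lay next to the CKO libraries and far from the other two controls. Its Dnmt3a level thus went against its label, which may be wrong, whereas its Olig1 level, 49.8 FPKM, was the highest of the 6 libraries. It was kept as a control. The log2 fold change was −0.78 (standard error, SE, 0.23), with an adjusted p of 0.657 from limma over all rows, and the exact permutation test over 3 against 3 gave the smallest p this design allows, 0.1. Without the library labelled control replicate 2 the log2 fold change was −1.05 with an adjusted p of 0.116 (limma), and the 6 fits that each dropped 1 library gave −1.05 to −0.61. In the Dnmt1 line Dnmt3a was between 29.2 and 32.8 FPKM in all 6 libraries. A gene-level FPKM counts reads from all exons, deleted or not, and from cells in which cre is not active.

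The related methyltransferases stayed near their control levels. Dnmt1 was at 9.94 ± 0.098 FPKM (SD, n = 3) in control cortices against 9.58 ± 0.148 FPKM in CKO cortices, a log2 fold change of −0.05. Dnmt3b, the other de novo methyltransferase, was at 0.187 ± 0.034 and 0.2 ± 0.0534 FPKM, below the level at which rows were tested.

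Olig1, the gene that hosts the cre, was at 48.4, 49.8 and 44.1 FPKM in controls against 30.6, 38.8 and 32.2 FPKM in the CKO cortices. Every CKO library lay below every control library, the log2 fold change was −0.49 (SE 0.097), and the adjusted p was 0.657 (limma). Dropping single libraries gave values between −0.59 and −0.42. The cre allele and the Dnmt3a deletion are carried by the same 3 mice, so their parts in this difference cannot be told apart. In the Dnmt1 line, where the same cre was used, Olig1 had a log2 fold change of −1.19, and the effects in the lines differed (interaction test of limma, adjusted p = 0.0324). Olig2, a close relative of Olig1 on the same chromosome, was at 10.2 ± 1.11 FPKM in control against 10.2 ± 1.32 FPKM in CKO cortices.

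**Figure D1:**
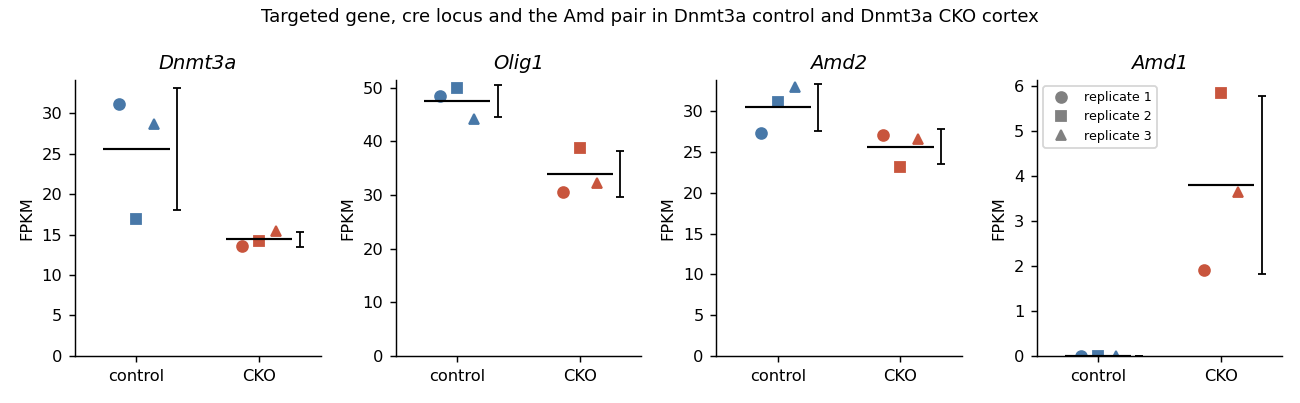
FPKM of Dnmt3a, Olig1, Amd2 and Amd1 (vertical axes, from 0) in 3 control (blue) and 3 CKO (red) cortices; marker shapes give the replicate number, lines the mean and bars the SD. In Dnmt3a the library labelled control replicate 2 sits at 16.9 FPKM, next to the CKO libraries at 13.6 to 15.4 FPKM, and Amd1 is above 1 FPKM in the 3 CKO libraries.

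Genes near the floxed locus and near the cre locus were described separately. Of 22 genes tested that start within 2 Mb of Dnmt3a, 1 had an unadjusted p under 0.05, against 7.35% of all rows. This was Itsn2, an endocytic scaffold gene 0.787 Mb away, at 8.09 ± 0.306 FPKM in control against 7.15 ± 0.155 FPKM in CKO cortices (log2 fold change −0.18). Of 27 genes near Olig1, 6 had an unadjusted p under 0.05, with 5 lower (2.46% of all rows were lower by this measure) and 1 higher (4.89%). The lower genes were Smim11 (−0.23), Paxbp1 (−0.18), Son (−0.13), Itsn1 (−0.11) and Synj1 (−0.09), and the higher gene was the interferon receptor gene Ifnar1 (0.10). Their distances from Olig1 ran from 0.215 to 1.03 Mb, and none passed the adjusted threshold. In the Dnmt1 line 6 of the 27 genes were lower with an unadjusted p under 0.05, against 10.4% of all rows there, but the 6 genes named here had unadjusted p of 0.114 or more in that line.

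Over all genes, the cortices of the genotypes differed little. Of 14115 rows tested, 2 passed a false discovery rate of 10% (0.0142%), both with higher values in CKO mice. A further count, of rows with an unadjusted p under 0.05, was 1037 (7.35%), of which 690 were higher and 347 lower. This count moved with single libraries, to 1742 without CKO replicate 3 (8.54% of rows higher, 3.80% lower) and to 693 without CKO replicate 1, and the shares beside the list counts move with it. The median absolute log2 fold change was 0.0621, 94.0% of the rows lay within 0.25 of 0 and the median 95% confidence interval reached 0.177 to either side. The interval stayed within 0.25 for 51.3% of the rows, within 0.5 for 87.4% and within 1 for 97.2%, which gives the size of change that 3 mice per group could bound. The share of higher genes among those with an unadjusted p under 0.05 was 66.5%; it was 57.4% after quantile normalization and 53.0% without CKO replicate 2. Of 154 rows with an absolute log2 fold change over 1, 131 were small RNAs and 14 were neither small RNAs nor listed at 0 in a library.

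**Figure D2:**
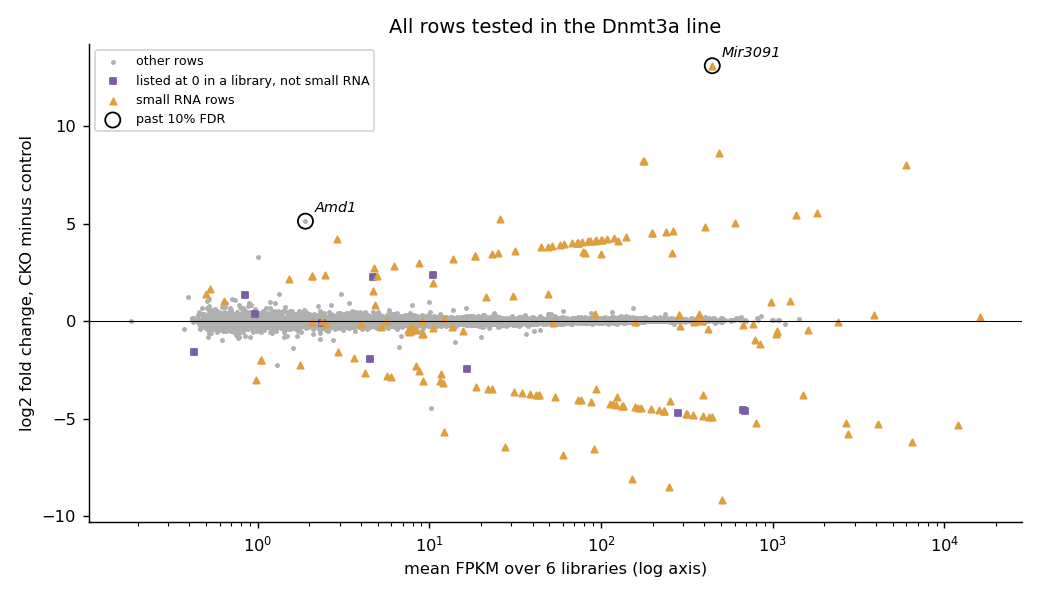
Log2 fold change of CKO against control (vertical axis) over the mean FPKM of the 6 libraries (log axis) for the 14115 rows tested; triangles are small RNA rows, squares other rows listed at 0 in a library, and circles mark the 2 rows past 10% FDR. Most rows lie near 0, and the far values are largely small RNAs.

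The symbols past the threshold were Mir3091 and Amd1. Mir3091, a microRNA gene of 76 bases (chromosome 2 of GRCm38, 180257536 to 180257611, plus strand) within an intron of the ribosomal protein gene Rps21, was listed at 0 in all 3 control libraries and at 846, 915 and 905 FPKM in the CKO libraries (limma, adjusted p = 1.4e-09). A 0 in a row this short can be a failed estimate rather than absent RNA, and FPKM values do not tell these apart. With all 3 controls at 0 the SE was 0.043, against a median of 2.59 over small RNA rows. The adjusted p therefore measures no spread between control mice. In 1 model of all 12 libraries Mir3091 was not called. No fold change is given because the control group was at 0. It was the only row tested that was listed at 0 in all controls and above 0 in all CKO libraries, and no row showed the opposite. Rps21 itself was at 266, 262 and 284 FPKM in control against 307, 333 and 292 FPKM in CKO cortices. In the Dnmt1 line Mir3091 was listed at 907, 886 and 0 FPKM in controls against 0, 0 and 1595 FPKM in the CKO mice, so values of 0 and large values occurred within each of those groups.

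Mir1900, another microRNA gene (chromosome 9, 21032251 to 21032328, minus strand), which lies in an exon of Gm47079 and opposite an intron of Icam5, was listed at 0, 0 and 670 FPKM in control against 712, 776 and 770 FPKM in CKO cortices (adjusted p = 0.657, limma). In the 6 of 12 libraries in which both were above 0, Mir3091 was 1.17 to 1.19 times Mir1900. Mir1188, in an intron of the imprinted non-coding RNA gene Rian (chromosome 12, 109611822 to 109611941, plus strand), was above 0 in every library, at 13.5, 12.1 and 11.5 FPKM in control against 22.3, 39.4 and 29.5 FPKM in CKO cortices. Its log2 fold change was 1.26 (SE 0.2, adjusted p = 0.657, limma), whereas Rian was at 168, 163 and 176 FPKM in control against 152, 153 and 176 FPKM in CKO cortices. The libraries were made from polyadenylated RNA and did not select mature microRNAs, so these rows count fragments over the hairpin genes. The mature forms from RefSeq (GRCm38.p6, 3 of 3 names matched) are given because these genes head the list of differences, with the seed, bases 2 to 8, in capitals.
mmu-miR-3091-5p: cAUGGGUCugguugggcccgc
mmu-miR-3091-3p: cGGGCCUGaccagucucaagac
mmu-miR-1900: gGCCGCCCucucugguccuuca
mmu-miR-1188-5p: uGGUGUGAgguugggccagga
mmu-miR-1188-3p: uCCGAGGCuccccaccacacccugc
No seed was shared among the 5 mature forms.

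Amd1 (chromosome 10, 40287458 to 40302186, minus strand) encodes S-adenosylmethionine decarboxylase, an enzyme of polyamine synthesis that uses the same methyl donor as the DNA methyltransferases. It was at 0.00043 to 0.00049 FPKM in the 3 control libraries and at 1.91, 5.85 and 3.64 FPKM in CKO replicates 1, 2 and 3 (limma, adjusted p = 0.0705). The row reached the level for testing only through these 3 CKO libraries, so it had to differ, and neither this p nor that of the interaction is independent support. All 6 libraries of the Dnmt1 line were also below 0.001 FPKM, at 0.00042 to 0.0005 FPKM, and the effects in the lines differed (interaction test of limma, adjusted p = 0.00155). The related gene Amd2 (chromosome 10, 35708675 to 35711892, minus strand), whose annotated transcript of 3218 bases has a single exon where the longest Amd1 transcript has 8, was at 27.3, 31.2 and 32.9 FPKM in control against 27.1, 23.1 and 26.6 FPKM in CKO cortices. Of the 50-base words in Amd1 transcripts, 76.7% also occur in Amd2. The values of both genes summed to 30.5 ± 2.88 FPKM in control against 29.4 ± 0.735 FPKM in CKO cortices, and the part of read assignment between them was not tested. Of 21 alternative analyses, 11 called Amd1, which was not tested at a minimum mean of 1 FPKM. Mir3091 was called in 18 and was not tested where small RNA rows or rows listed at 0 were left out.

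The 250 bases upstream of the RefSeq starts of this pair (GRCm38.p6, minus strand) are shown because Amd1 was the one protein-coding gene called and CpG dinucleotides, in capitals, are the main target of DNMT3A. The Amd1 stretch is chr10:40302189-40302438 and the Amd2 stretch is chr10:35711892-35712141.
Amd1: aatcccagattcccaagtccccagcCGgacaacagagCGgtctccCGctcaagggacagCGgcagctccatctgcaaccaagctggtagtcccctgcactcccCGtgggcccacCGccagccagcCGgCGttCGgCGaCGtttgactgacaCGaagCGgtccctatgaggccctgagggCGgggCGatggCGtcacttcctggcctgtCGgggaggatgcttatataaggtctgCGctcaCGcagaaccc
Amd2: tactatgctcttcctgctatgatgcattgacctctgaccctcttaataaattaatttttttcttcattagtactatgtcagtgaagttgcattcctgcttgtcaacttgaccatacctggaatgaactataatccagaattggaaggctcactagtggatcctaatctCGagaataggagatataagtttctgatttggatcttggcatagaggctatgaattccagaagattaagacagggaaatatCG
The Amd1 stretch holds 19 CpG and the Amd2 stretch 2. Over windows of 300 bases, which add the first 50 bases of the transcript, the counts were 24 and 6, and 99.6% of the 10165 windows of genes tested hold at least 1 CpG, with a median of 21. The longest run shared by both windows was 48 bases, all of it downstream of the starts. No methylation was measured in these libraries.

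Promoter CpG content was also described for the genes with an unadjusted p under 0.05. The 507 of these with higher values in the CKO cortices had a median of 21 CpG per window, and 82.6% of them had at least 10, as did 82.6% of all genes. The 254 lower genes had a median of 19.5, and 72.0% had at least 10.

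The oligodendrocyte lineage, in which cre is active, was followed from progenitors to myelin. In bulk tissue, fewer cells of a type and less RNA per cell cannot be told apart. Of 12 progenitor genes tested, 1 was higher and 1 lower with an unadjusted p under 0.05 (4.89% and 2.46% of all rows). The median log2 fold change was 0.01, against 0.01 over all rows. Pdgfra, the growth factor receptor that marks progenitors, was at 14.7, 12.4 and 12.6 FPKM in control against 12.6, 13.3 and 12.2 FPKM in CKO cortices. Vcan, a matrix proteoglycan, was at 5.47, 5.09 and 4.89 FPKM in control against 5.96, 6.52 and 5.97 FPKM in CKO cortices, a log2 fold change of 0.25, and was separate between the groups. Neu4, a sialidase, was at 4.03, 4 and 3.89 FPKM against 3.47, 3.29 and 3.48 FPKM, a log2 fold change of −0.21, with an effect that differed from that in the Dnmt1 line (interaction test of limma, adjusted p = 0.0107).

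The 12 genes of committed and newly formed oligodendrocytes had a median of 0.08. Of these, 1 was higher and none lower at an unadjusted p under 0.05 (4.89% and 2.46% of all rows). That gene was Bmp4, a secreted growth factor, at 2.47, 2.31 and 2.97 FPKM in control against 3.58, 3.52 and 3.28 FPKM in CKO cortices. Its log2 fold change was 0.42, against −0.45 in the Dnmt1 line (interaction test of limma, adjusted p = 0.0029). Among 12 transcription factors of the lineage, Olig1 alone had an unadjusted p under 0.05. Lower without overlap were 3 of the 12 and higher none (5.43% and 7.33% of all rows). Beside Olig1 these were Zfp488 (−0.17, unadjusted p = 0.0563, limma) and Zfp536 (−0.12, unadjusted p = 0.0919, limma). Sox10, which drives myelin genes throughout the lineage, was at 16.8, 16.3 and 13.2 FPKM in control against 17.3, 16.9 and 13.5 FPKM in CKO cortices, and Myrf, required for the step to myelinating cells, was at 8.65, 7.85 and 7.03 against 8.37, 8.95 and 7.83 FPKM. Both overlapped between the groups.

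Myelin genes had log2 fold changes mostly near 0, with a median SE of 0.089 against 0.072 over all rows. Of 24 tested, 1 had an unadjusted p under 0.05 (7.35% of all rows) and the median was 0.05. For 23 of them the 95% confidence interval stayed within 0.5 of 0 on the log2 scale, as for 87.4% of all rows. Mbp, which compacts the myelin sheath, was at 1336, 1493 and 1260 FPKM in control against 1417, 1609 and 1417 FPKM in CKO cortices. The groups overlapped for this gene, and the summed level of the list was 2812 to 3358 FPKM in control against 3095 to 3545 FPKM in CKO cortices. The gene with a wider interval was Enpp2, a lysophospholipase also made by choroid plexus, at 75.8, 83.3 and 60.3 FPKM in control against 109, 130 and 65.2 FPKM in CKO cortices. The single member with an unadjusted p under 0.05 was Trf, the iron carrier transferrin, at 31.7, 34.1 and 31.3 FPKM against 35.5, 41.0 and 39.6 FPKM, a log2 fold change of 0.25; 59.4% of its 50-base words occur in other annotated genes. Of 22 genes of cholesterol synthesis, which feeds myelin membranes, 1 was lower (Sc5d, −0.11) and the median was −0.02.

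The effects in both lines were set side by side for these genes. The interaction between the lines passed 10% FDR in 2.13% of all rows (1.83% with the higher effect in the Dnmt3a line), and in 22 of the 24 myelin genes, 8 of 12 genes of committed and newly formed oligodendrocytes, 6 of 12 transcription factors, 5 of 22 cholesterol genes and 2 of 12 progenitor genes. The median log2 fold changes in the Dnmt1 line were −1.67, −0.56, −0.48, −0.27 and −0.22 for the lists in that order, against 0.05, 0.08, 0.02, −0.02 and 0.01 in the Dnmt3a line.

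**Figure D3:**
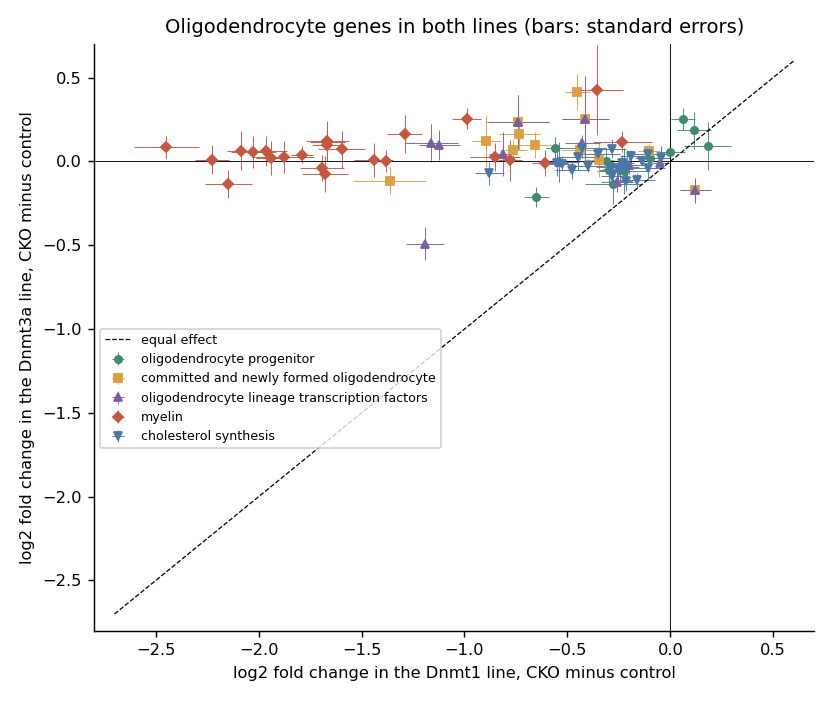
Log2 fold changes of oligodendrocyte genes in the Dnmt3a line (vertical axis) and the Dnmt1 line (horizontal axis), 1 point per gene with standard errors as bars; the dashed line marks equal effects. Myelin genes spread far to the left, with a median of −1.67 in the Dnmt1 line, but stay near 0 in the Dnmt3a line, with a median of 0.05.

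Astrocyte genes had small log2 fold changes that were mostly above 0. Above 0 were also 10 of 14 interneuron and 8 of 14 excitatory neuron genes, against 53.0% of all rows. The tally was 20 of 24 for myelin, 10 of 12 for committed and newly formed oligodendrocyte and 12 of 14 for microglia genes. Of 14 astrocyte genes, 5 were higher with an unadjusted p under 0.05 and none lower (4.89% and 2.46% of all rows), 13 had a log2 fold change above 0 and the median was 0.13. The summed level of the list, in which abundant genes weigh most, was 1322 to 1381 FPKM in control against 1431 to 1539 FPKM in CKO cortices, with no overlap. Sums were also higher without overlap for the excitatory neuron, interneuron, glucocorticoid, cell cycle and clustered protocadherin lists, and overlapped for the remaining lists. Of all single rows, 7.33% were higher without overlap. The excitatory neuron sum was 1049 to 1092 FPKM in control, where Slc17a7 and Camk2a had means of 425 and 473 FPKM. Of that list's 14 members, 6 had a log2 fold change below 0. Aldoc, a glycolytic enzyme of astrocytes, was at 235, 253 and 242 FPKM in control against 272, 290 and 270 FPKM in CKO cortices, a log2 fold change of 0.19. The other 4 were Fgfr3 (0.31), S100b (0.17), Acsbg1 (0.14) and Aldh1l1 (0.13). Gfap, the filament protein that reactive astrocytes make, was at 42.5, 40.2 and 44.4 FPKM against 46.8, 53.4 and 40.2 FPKM and overlapped. The count was 2 without CKO replicate 1. Without CKO replicate 2 the median of the list was 0.07, with 3 genes at an unadjusted p under 0.05, and after quantile normalization it was 0.09, with 4.

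Among 14 genes of inhibitory interneurons, 4 were higher and none lower with an unadjusted p under 0.05 (4.89% and 2.46% of all rows), and the median was 0.11. Pvalb, the calcium-binding protein of fast-spiking interneurons, was at 19.4, 22.2 and 19.1 FPKM in control against 26.9, 25.3 and 29.8 FPKM in CKO cortices. Its log2 fold change was 0.43 (SE 0.082, adjusted p = 0.657, limma), against −0.27 in the Dnmt1 line (interaction test of limma, adjusted p = 0.00565). The neuropeptide genes Sst (0.17), Vip (0.18) and Cck (0.18) were the others. The GABA-synthesizing enzymes overlapped between the groups: Gad1 was at 70.2, 75.7 and 72.7 FPKM against 77.3, 80.9 and 69.9 FPKM, and Gad2 at 31.6, 30 and 30.1 FPKM against 31, 33.6 and 23.7 FPKM. Without CKO replicate 2 the median was 0.02, and without CKO replicate 3 it was 0.18, with 6 genes higher at an unadjusted p under 0.05, where 8.54% of all rows were.

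The 14 genes of excitatory neurons and cortical layers had a median of 0.09. Of these, 2 were higher and none lower with an unadjusted p under 0.05 (4.89% and 2.46% of all rows). Slc17a7, the vesicular glutamate transporter, was at 418, 434 and 424 FPKM in control against 462, 480 and 479 FPKM in CKO cortices (log2 fold change 0.16). Cux1, a transcription factor of the upper layers, was at 15.7, 16.9 and 16.3 FPKM against 19.6, 19.6 and 19.3 FPKM, a log2 fold change of 0.26 (SE 0.036) and a difference from the Dnmt1 line past the threshold (interaction test of limma, adjusted p = 0.029). The layer genes Fezf2 (−0.10) and Bcl11b (−0.07) had values below 0 with unadjusted p over 0.05. The genes named here from these 3 lists with an unadjusted p under 0.05 had an adjusted p of 0.657, and Gfap, Gad1, Gad2, Fezf2 and Bcl11b had 0.784 to 0.915 (limma).

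In the remaining cell types few genes had an unadjusted p under 0.05. None of 14 microglia genes did, with a median of 0.11 (0.02 without CKO replicate 2 and 0.17 without CKO replicate 1, when 2 genes were higher) and summed levels of 176 to 207 FPKM in control against 188 to 233 FPKM in CKO cortices. Of 14 endothelial and pericyte genes, 1 was higher (Esam, an adhesion molecule, 0.16), and of 11 meningeal genes 1 was lower (Dcn, −0.51). Over all rows, 4.89% were higher and 2.46% lower with an unadjusted p under 0.05. Dcn was at an unadjusted p over 0.05 with the replicate block, without CKO replicate 1 and without any 1 control. Blood genes had 5 members tested with a median of 0.58, among them Hba-a2, which was below 0.0001 FPKM in 4 libraries and at 3.1 and 2.93 FPKM in CKO replicates 1 and 2, and none with an unadjusted p under 0.05. The blood median was 0.26 without CKO replicate 2 and 0.30 without control replicate 3. With Xist as a covariate, 3 of the 5 genes were higher at an unadjusted p under 0.05 (5.31% of all rows), and 2 with the replicate block (4.87%).

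Genes of tissue next to the cortex varied between single libraries of both groups. Ttr, the transthyretin gene that marks choroid plexus, was at 101, 120 and 4.57 FPKM in control against 287, 408 and 1.94 FPKM in CKO cortices, so replicate 3 was the lowest library of each group and the other two CKO libraries lay above every control. Of the 12 choroid plexus genes listed, 7 were tested, none had an unadjusted p under 0.05 and the median was 0.61, which was 1.43 without CKO replicate 3, with 6 genes higher at an unadjusted p under 0.05 (8.54% of all rows in that fit), and 0.11 without CKO replicate 2. Of 12 striatal genes none had an unadjusted p under 0.05, and the summed level was 188 to 303 FPKM in control against 170 to 315 FPKM in CKO cortices, with CKO replicate 3 the lowest. The 9 genes at which that library lay more than 1 on the log2 scale below each of the others included Trh, the thyrotropin-releasing hormone gene, at 3.84, 4.09 and 2.68 FPKM in control against 4.57, 4.13 and 0.992 FPKM in CKO cortices, the imprinted gene Dlk1 and the choroid plexus gene Clic6. Prkcd, a kinase gene high in thalamus, was at 10.6 FPKM in CKO replicate 1 and at 3.27 to 4.68 FPKM elsewhere.

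**Figure D4:**
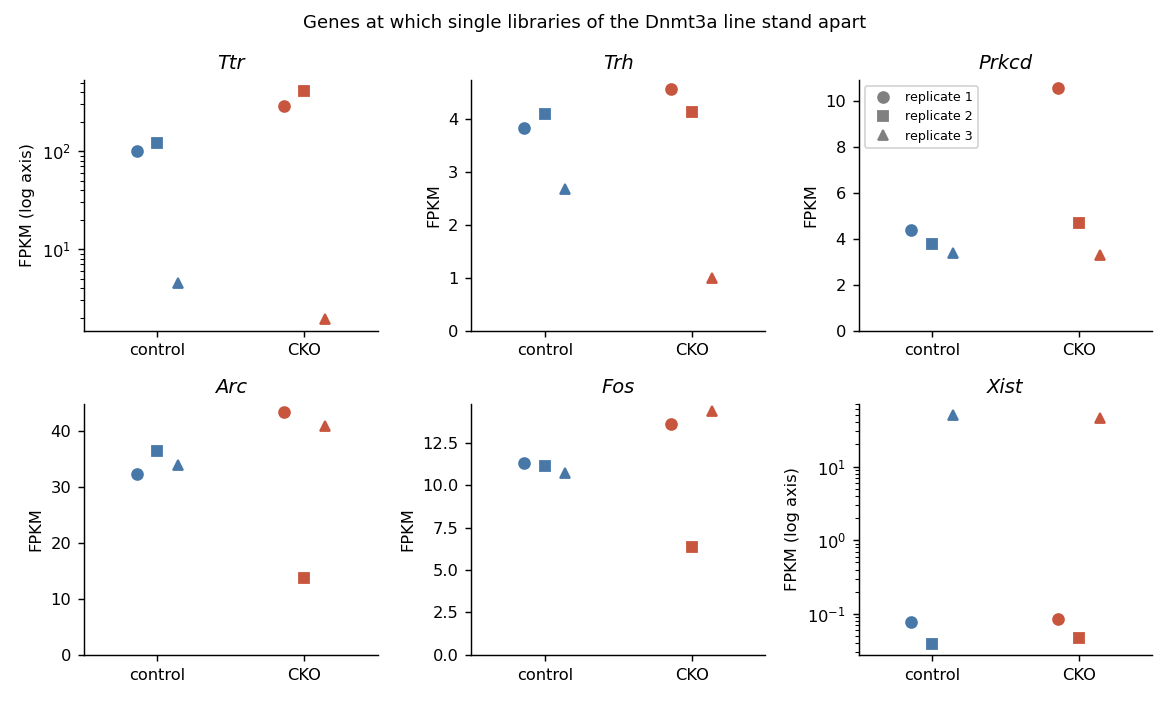
FPKM of 6 genes in the 3 control (blue) and 3 CKO (red) cortices, with marker shapes for the replicate number and log axes for Ttr and Xist. Ttr is at 4.57 and 1.94 FPKM in both replicates 3 and at 101 to 408 FPKM elsewhere, and Arc and Fos are low in CKO replicate 2.

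Genes of DNA methylation itself were examined next. Of 16 writers, erasers and readers tested, 2 were higher and 1 lower (Dnmt3a) with an unadjusted p under 0.05. Over all rows, 4.89% were higher and 2.46% lower by this measure. The median of the list was −0.05. Uhrf1, which brings DNMT1 to replicated DNA, was at 0.488, 0.471 and 0.474 FPKM in control against 0.53, 0.677 and 0.637 FPKM in CKO cortices (log2 fold change 0.30; 15.4% of its 50-base words occur in other genes). Mbd3, a member of the methyl-CpG-binding domain family, was at 28.6, 26.3 and 29.1 FPKM against 31.3, 31.1 and 29.6 FPKM (0.13). The demethylation enzymes Tet1 (−0.18), Tet2 (−0.08) and Tet3 (−0.05) had unadjusted p over 0.05. Dnmt3l, a cofactor of the de novo methyltransferases without activity of its own, was below the level for testing, at 0.017, 0 and 0.0155 FPKM in control against 0.113, 0.0865 and 0.0655 FPKM in CKO cortices. Its groups did not overlap, as in 3.83% (higher) and 4.64% (lower) of the 5985 rows below that level that were above 0 in a library.

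Gene classes known to depend on DNA methylation followed. Of 24 imprinted genes tested, 3 were lower and none higher with an unadjusted p under 0.05 (2.46% and 4.89% of all rows), and the median was −0.08. They were Sgce (−0.20), Mest (−0.19) and Dcn (−0.51), which is also on the meningeal list. Dcn was at −0.29 without CKO replicate 3 and at −0.68 without CKO replicate 2. The imprinted median was 0.05 without CKO replicate 3, and 1 gene was lower without control replicate 1 (2.22% of all rows). Of the 4 imprinted genes below the level for testing, 1 (Peg12) had CKO values above every control value. Of 20 germline genes, which DNA methylation silences in somatic cells, 5 reached the level for testing and none had an unadjusted p under 0.05; the most abundant, Brdt, was at 2.98, 3.1 and 3.08 FPKM in control against 2.83, 2.89 and 2.87 FPKM in CKO cortices. Of the 15 germline genes below that level, 4 had CKO values above every control value and none had them below (3.83% and 4.64% of such rows). They were Taf7l, Tex11, Slc25a31 and Stk31, all at low values. Stk31 was at 0.0083, 0.0655 and 0.0303 FPKM in control against 0.376, 0.151 and 0.12 FPKM in CKO cortices. For Slc25a31 the values were 0.0656, 0.103 and 0 FPKM against 0.242, 0.113 and 0.228 FPKM. These genes were not tested, and the count was made after their values were seen. Among 21 clustered protocadherin genes, 1 was higher, Pcdhgc3, at 28.1, 27 and 27.6 FPKM against 33.3, 34.9 and 30.4 FPKM (0.25). Exons at the 3′ end are shared within the gamma cluster, and 37.7% of the 50-base words of Pcdhgc3 occur in other genes. Of 12 MHC class I genes, 1 was lower (H2-Q4, −0.16; 21.8% of its words occur elsewhere).

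**Figure D5:**
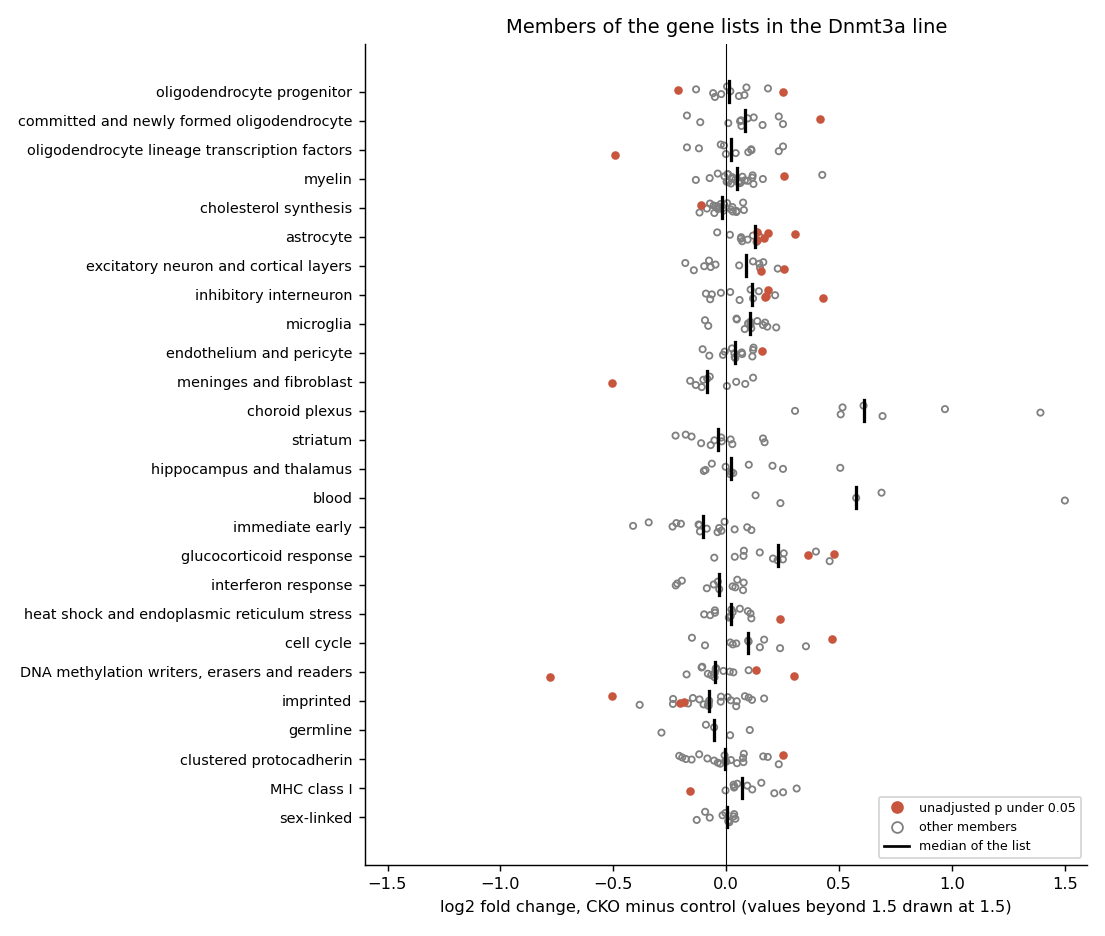
Log2 fold change of CKO against control for the members tested of 26 gene lists (1 line of points per list); filled points had an unadjusted p under 0.05, and black bars are the medians. Most lists centre near 0, and the astrocyte and interneuron lists have medians of 0.13 and 0.11.

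Genes that answer to the state of the animal were described as well. None of 16 immediate early genes had an unadjusted p under 0.05. Arc, a synaptic immediate early gene, was at 32.3, 36.4 and 33.8 FPKM in control against 43.3, 13.7 and 40.8 FPKM in CKO cortices, and Fos at 11.3, 11.2 and 10.7 FPKM against 13.6, 6.34 and 14.4 FPKM. CKO replicate 2 was the low library in both, and the median of the list was −0.10 with it and 0.11 without it, when 5 genes were higher at an unadjusted p under 0.05 (2.92% of all rows). Of 13 genes that glucocorticoids raise, 2 were higher and 12 had a log2 fold change above 0 (4.89% and 53.0% of all rows), with a median of 0.23. The 2 were the metallothionein genes Mt2, at 98.6, 112 and 79.8 FPKM in control against 134, 144 and 123 FPKM in CKO cortices (0.48), and Mt1, at 209, 245 and 170 FPKM against 276, 287 and 235 FPKM (0.36). Fkbp5, a further target of the glucocorticoid receptor, was at 7.69, 10.8 and 6.93 FPKM against 15.1, 11.8 and 8.45 FPKM, with overlap. Without the library labelled control replicate 2 the list's median was 0.33, with 8 genes higher at an unadjusted p under 0.05 (4.68% of all rows). Without control replicate 1 it was 0.13, with 1 (3.09%). The count was 4 with the replicate block (4.87%) or Xist as a covariate (5.31%). It was 5 without small RNA rows (5.09%), an alternative chosen after seeing the data.

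Of 12 interferon response genes none had an unadjusted p under 0.05, and the median was −0.03. Of 14 heat shock and endoplasmic reticulum stress genes, Hspa1a was higher (0.24; 60.4% of its words occur in other genes, mostly its copy Hspa1b, which had 0.11). Of 12 cell cycle genes, Birc5, a gene of dividing cells, was higher with an unadjusted p under 0.05 (4.89% of all rows). It was at 0.783, 0.685 and 0.643 FPKM in control against 1.02, 1.06 and 0.944 FPKM in CKO cortices (0.47). The proliferation marker Mki67 was at 0.651, 0.371 and 0.598 FPKM against 0.599, 0.67 and 0.653 FPKM and overlapped.

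The largest differences with an unadjusted p under 0.05 and separate groups were then listed, with the 10 highest and 10 lowest genes of the 858 rows that met these limits and had a mean of at least 1 FPKM. Beyond Mir3091, Mir1900, Amd1 and Mir1188, the higher genes were Mid1 (0.99), Acer2 (0.96), Foxo6 (0.83), Gm4477 (0.66), Cox6b2 (0.57) and Tnfaip6 (0.54). Mid1, a ubiquitin ligase gene at the border of the pseudoautosomal region of the X chromosome (169685199 to 170005736), was at 7.21, 6.66 and 5.51 FPKM in control against 18.9, 10.8 and 10.4 FPKM in CKO cortices, and part of its transcript sequence also occurs in Mid1-ps1. Acer2, an alkaline ceramidase of the Golgi, was at 0.858, 0.941 and 0.641 FPKM against 2.28, 1.64 and 1.22 FPKM. In Foxo6, a forkhead factor, control replicate 3 at 8.5 FPKM came within 0.1 FPKM of CKO replicate 3 at 8.6 FPKM.

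Beside Dnmt3a, Olig1 and Dcn, the lower genes were Nmbr (−0.75), Hddc3 (−0.73), Gm9767 (−0.53), Calca (−0.50), Cbln4 (−0.44), Tceanc2 (−0.41) and Sfmbt2 (−0.41). Nmbr, the neuromedin B receptor, was at 2, 2.19 and 2.13 FPKM in control against 1.68, 1.45 and 0.709 FPKM in CKO cortices, with the lowest value in CKO replicate 3. In Hddc3, control replicate 1 at 13.3 FPKM stood far above the other two controls at 6.83 and 6.23 FPKM. Tceanc2 had the narrowest spread, at 3.02, 2.91 and 3 FPKM in control against 2.31, 2.11 and 2.21 FPKM in CKO cortices (SE 0.067). All of these genes had an adjusted p of 0.657 (limma).

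Heatr8 came closest to the threshold without passing it and was picked out after its values were seen. It was at 0.561, 0.494 and 0.524 FPKM in control against 1.07, 1.04 and 0.988 FPKM in CKO cortices, a log2 fold change of 0.86 (SE 0.076, adjusted p = 0.142, limma). The level lay close to the minimum for testing in every library, and the gene passed 10% FDR when the variance was shrunk without a trend (limma, adjusted p = 0.0628).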

How the data were processed

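Reads were mapped to mm10 by the authors with TopHat and quantified per gene with Cufflinks, and the FPKM values of the 12 libraries were deposited in 1 table; software versions and the gene annotation are not given in the sources used here. Of 23850 deposited rows, 302 exact duplicates were dropped. Values were tested as log2(FPKM + 0.1) with limma 3.58.1 (R 4.3.3; two-sided, variance shrunk along a trend with the mean) where the mean of the 12 libraries reached 0.5 FPKM, and p-values were adjusted by Benjamini-Hochberg over all 14115 rows, with a threshold of 10% FDR. Fold changes on this scale understate changes of genes with low values. FPKM values are not counts, so no count model was used, and read depth is unknown. Effects in the 2 lines were compared by an interaction over 12 libraries, without a term for sex in the main fit. Sex was not balanced in the Dnmt1 line. Its control replicate 3 was female by expression (Xist 49.4 FPKM and the Y-linked Ddx3y 0.0207 FPKM). All 3 Dnmt1 CKO libraries had Ddx3y, at 10.2 to 11.1 FPKM. The gene lists, members and naming rule were chosen with earlier results of these data known, so lists are described by counts and medians only. The rule named Dnmt3a, Dnmt1, Dnmt3b and Olig1, every symbol past 10% FDR, the 10 largest increases and decreases (mean of at least 1 FPKM in the line, unadjusted p under 0.05, groups that do not overlap), the 3 most abundant members of each list and those with an unadjusted p under 0.05, the 2 symbols per library farthest from the other 5, and genes within 2 Mb of Dnmt3a or Olig1 with an unadjusted p under 0.05. Some list members are not reported here, and a few further genes were picked after their values were seen. Coordinates are from GENCODE M21 (GRCm38), sequences and promoter windows from RefSeq (GRCm38.p6), and transcripts were compared by shared words of 50 bases. The fit was tested on simulated data. P-values measure the spread between these mice, which for Mir3091 was 0 among the controls. Alternatives were other pseudocounts, minimum levels, variance models and scalings, summed rows, a replicate block, Xist as a covariate, 1 model of all 12 libraries, 5% FDR and single libraries left out; leaving out small RNA rows or rows listed at 0 was added after seeing the data.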

Additional observations from a re-analysis of the deposited data

Results flagged for a closer look

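For the genes that follow, the effect of the CKO differed between the Dnmt3a and the Dnmt1 line by the interaction test of limma over 12 libraries, whose adjusted p follows each name. The myelin genes Opalin (1.46e-05), Mbp (1.64e-05) and Trf (4.32e-05) had log2 fold changes of 0.08, 0.12 and 0.25 in the Dnmt3a line and of −2.45, −1.67 and −0.99 in the Dnmt1 line. The transcription factor genes Myrf (0.000687), Sox10 (0.0153) and Olig1 (0.0324) had 0.10, 0.04 and −0.49 in the Dnmt3a line and −1.12, −0.81 and −1.19 in the Dnmt1 line. Bmp4 (0.0029) and Neu4 (0.0107) had 0.42 and −0.21 in the Dnmt3a line, against −0.45 and −0.65. The neuronal genes Pvalb (0.00565) and Cux1 (0.029) had 0.43 and 0.26, against −0.27 and −0.07, and the vascular gene Esam (0.0352) had 0.16, against −0.16. H2-Q4 (0.0514) and Sfmbt2 (0.0971) had −0.16 and −0.41, against 0.35 and 0.27. Tnfaip6 (0.0846) had 0.54, against −0.62. Amd1 (0.00155) was above 1 FPKM in the Dnmt3a CKO libraries alone and reached the level for testing only through them, so its difference between the lines was fixed by that level and is no independent support. Groups of 3 were too small for a test of single outlying samples.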

How the results depend on the processing

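The count of Dnmt3a line genes past 10% FDR, 2, was 1 with a pseudocount of 1, a minimum mean of 1 FPKM, quantile normalization, Xist as a covariate, 1 model of all 12 libraries or 5% FDR, and 1 without small RNA rows or without rows listed at 0, both chosen after seeing the data. It was 20 with no filter on low values, of which 1 was shared with the 2. Leaving out single libraries gave 2 to 5, the highest without control replicate 3 (4 without control replicate 1 or CKO replicate 1). Mir3091 was called in all 6 of these fits, and Amd1 lost its call without CKO replicate 3 or any 1 control. The replicate numbers are not stated to mark litters, so they were not taken to pair the mice. Same-numbered samples deviated together with correlations of 0.207, 0.0998 and 0.349. The library labelled control replicate 2 correlated better with CKO replicate 1 (0.153). With the replicate block the count of Dnmt3a line genes was 1, and that of interaction genes past 10% FDR was 231 instead of 299. That interaction count lay between 205 (without Dnmt3a CKO replicate 2) and 334 over its alternatives. The adjusted p over the alternatives (limma) was 0.116 to 0.864 for Dnmt3a, 0.35 to 0.864 for Olig1, 0.0024 to 0.657 for Amd1 and 6.7e-15 to 0.534 for Mir3091. Of 54 genes followed through 21 alternatives, 51 were called in none, Heatr8 was called in 1, and none changed direction. The cause of these changes was not tested.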

Other observations

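Rows with an unadjusted p under 0.05 were counted by chromosome after the values were seen. Chromosome 4 had 88 of 811 rows (10.9%), against 7.39% of the 13204 rows with a position, and the other autosomes and the X chromosome had 4.87% to 8.85%. Of the 88 rows, 56 were higher and 32 lower in CKO cortices. In the Dnmt1 line chromosome 4 had 15.2%, against 14.9% over all rows. The difference between chromosomes was not tested.

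Alad, which encodes an enzyme of heme synthesis, and Hdhd3 are neighbours on chromosome 4 (62509169 to 62519918 and 62499008 to 62503467, both minus strand). Alad was at 2.98, 2.92 and 3 FPKM in control against 4.32, 4.45 and 3.79 FPKM in CKO cortices, and Hdhd3 at 2.5, 2.93 and 3.25 FPKM against 4.61, 3.83 and 4.13 FPKM. Their log2 fold changes were 0.48 and 0.52, with adjusted p of 0.657 (limma), and the groups were separate for both. Tceanc2 (107134155 to 107179116, log2 fold change −0.41) and Acer2 (86874396 to 86934822, 0.96) are on the same chromosome.

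Gpnmb, a glycoprotein gene of phagocytic cells, was at 0.295, 0.575 and 0.379 FPKM in control against 0.908, 1 and 1.12 FPKM in CKO cortices (log2 fold change 1.14, adjusted p = 0.657, limma), and Apoc1, an apolipoprotein gene, at 1.17, 2.36 and 1.15 FPKM against 7.15, 4.6 and 1.97 FPKM (1.39), with overlap. None of the 14 microglia genes had an unadjusted p under 0.05.

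The symbols of each library that lay farthest from the other 5 were all small RNA genes. Mir344f (1893 FPKM) and Mir344g (1402 FPKM) were above 0 in control replicate 1 alone, Snord85 (2659 FPKM) and Mir5116 (2560 FPKM) in the library labelled control replicate 2, and Snord37 (39005 FPKM) and Snord42b (16473 FPKM) in control replicate 3. Mir680-3 (8158 FPKM) and Snord95 (3622 FPKM) were above 0 in CKO replicate 1 alone, Snord34 (2420 FPKM) and Snord4a (1574 FPKM) in CKO replicate 2, and Snord65 (10918 FPKM) in CKO replicate 3. Snord69, by contrast, was listed at 0 in CKO replicate 3, and elsewhere its values ran from 6836 to 19787 FPKM.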
